A study of Homo sapiens with 6 samples.

Results

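The genes described here are the long non-coding RNA genes named LINC (long intergenic non-protein-coding RNA) or SNHG (small nucleolar RNA host gene) followed by a number, as measured in THP-1 cells with and without depletion of RKIP. They were chosen by name and signal: 1 gene symbol per probe, the probe with the highest mean of the 6 arrays for each gene, no antisense suffix, and a mean of 4.5 or more on the deposited log2 scale. That left 84 genes, 76 LINC of 458 with a named probe and 8 SNHG of 9, out of 14884 named genes. THP-1 is a long-cultured human cell line that came from a monocytic leukaemia. Both groups were transduced with the lentiviral vector psi-LVRU6GP and kept in 1.5 µg/mL puromycin; control cells carried it empty and RKIP shRNA cells carried it with a hairpin against RKIP, the Raf kinase inhibitor protein encoded by PEBP1. Each group held 3 arrays that the labels call biological replicates. Whether they came from separate transductions is not said, so the p-values rest on array-to-array spread that could be technical in part. One hairpin was compared with an empty vector, and no second hairpin or scrambled hairpin was analysed here.

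Long intergenic RNAs are spliced and polyadenylated like messenger RNAs but have no long reading frame, and most numbered LINC genes have no settled function. Their levels are often low and differ between cell types. SNHG genes work in another way: small nucleolar RNAs that guide the chemical modification of ribosomal and spliceosomal RNA are cut out of their introns, while the spliced exons leave the nucleus and are usually removed by nonsense-mediated decay, the pathway that degrades transcripts with early stop codons. Many SNHG transcripts begin with a C followed by a run of pyrimidines, the terminal oligopyrimidine start they share with ribosomal protein genes, which ties translation and stability to growth signals.

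The start regions of SNHG genes are shown because of this known feature of the family. RefSeq start regions (GRCh38.p14) matched 63 of the 84 genes, 7 SNHG and 56 LINC, and the first listed start was used for each. A run of at least 5 bases that opens with C and holds only C or T, beginning within 5 bases of the annotated start, was found in 4 of 7 SNHG and 14 of 56 LINC start regions, against 21.1% of all 27305 genes with a start region. The 4 SNHG starts follow as 60 bases of the gene's strand with that run in capitals. They lie at chr4:118278732-118278791 (plus strand) for SNHG8, chr6:85678704-85678763 (minus) for SNHG5, chr20:38435299-38435358 (minus) for SNHG17 and chr17:76557734-76557793 (plus) for SNHG16.
SNHG8: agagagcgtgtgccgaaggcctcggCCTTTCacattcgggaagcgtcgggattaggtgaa
SNHG5: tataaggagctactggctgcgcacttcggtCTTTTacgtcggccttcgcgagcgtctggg
SNHG17: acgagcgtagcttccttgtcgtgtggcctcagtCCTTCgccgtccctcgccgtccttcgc
SNHG16: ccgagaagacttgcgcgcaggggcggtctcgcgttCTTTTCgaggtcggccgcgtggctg
SNHG10, SNHG20 and SNHG33 had no such run there, which says only that these letters are not in that window. The longest run among the 63 genes was one of 8 bases in LINC01341, and the shares of the families were not tested against each other.

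The array labels were checked first on the targeted gene. PEBP1 read 9.52, 9.77 and 9.75 on the control arrays and 8.25, 8.18 and 8.24 on the RKIP shRNA arrays, a level of 36.4% of control (95% interval 31.6% to 42.1%; limma adjusted p = 0.000228; exact two-sided permutation p = 0.10, the smallest that 3 arrays against 3 allow). Medians were nearly equal across the arrays, and any pair of arrays shared identical values in only 58 to 144 of 53617 rows. Myeloid identity genes were present: MPO, LYZ, SPI1 and LAPTM5 had control means from 7.55 to 12.8, whereas the monocyte receptor gene CD14 was at 2.77, below the median of all rows (4.08, called dim here). Of 9 measured myeloid genes 7 rose with RKIP shRNA and none fell (limma, adjusted p under 0.05), where 20.2% of all named genes, and 31.7% of the 8628 with a mean of 4.5 or more, passed in either direction. The summed log2 level of the 9 genes was 66.1 to 66.8 in control and 74.2 to 74.9 in RKIP shRNA arrays. The T cell, B cell and erythroid lists had 1 of 6, 1 of 3 and 0 of 2 members past the threshold (CD5 and VPREB3). Of their members 1, 0 and 0 were dim in both groups. The epithelial and fibroblast lists had 1 of 6 and 1 of 4 past the threshold (KRT18 and FN1). Of theirs 3 and 2 were dim in both groups, EPCAM and DCN among them. Other genes of these lists read well above the median of all rows, such as PAX5 at 6.78 and KRT18 at 8.26 in control. The summed level of the 4 fibroblast genes, led by FN1, was 12.8 to 13.0 in control and 13.7 to 14.2 in RKIP shRNA arrays. What part the shift of these genes has in the values below was not tested.

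Of 8 SNHG genes 1 was higher (12.5%), none was lower by limma (2 had an unadjusted p under 0.05, SNHG16 and SNHG10) and 7 did not pass. Among all named genes 10.0% were higher and 10.2% lower, and among those with a mean of 4.5 or more 15.9% were higher and 15.8% lower. The median log2 change of the 8 SNHG genes was 0.06, against 0.02 over all named genes. For 6 of the 7 that did not pass, the 95% interval of the change lay within 0.5 of no change on the log2 scale in both directions.

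SNHG16, host of the SNORD1 box C/D small nucleolar RNAs, was the member that rose. It read 9.41, 9.43 and 9.36 on the control arrays and 9.72, 9.72 and 9.77 on the RKIP shRNA arrays. Every RKIP shRNA array lay above every control array, and the rise was 1.26-fold (log2 change 0.34, SE 0.06, limma adjusted p = 0.0109). It kept its call whichever single array was left out, with a highest adjusted p of 0.046.

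SNHG10, host of the Cajal body RNA SCARNA13, pointed the other way. Its control arrays read 8.27, 8.08 and 8.07, and its RKIP shRNA arrays 7.97, 7.76 and 7.99. The groups did not overlap, but the log2 change of -0.23 (interval -0.46 to -0.01) did not pass after adjustment (limma adjusted p = 0.14). With a trended and robust prior in limma it would have been called lower (adjusted p = 0.044).

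The other 6 SNHG genes overlapped between the groups, whereas 55.3% of all named genes with a mean of 4.5 or more did not overlap. SNHG17, which hosts the SNORA71 RNAs, had a log2 change of 0.22 (interval -0.10 to 0.53) with control arrays from 8.38 to 8.80 and RKIP shRNA arrays from 8.69 to 9.02. SNHG5, host of the SNORD50 RNAs, had a log2 change of 0.10 (interval -0.25 to 0.44); 1 RKIP shRNA array stood at 9.76 and the others at 9.34 and 9.20. SNHG8, which hosts SNORA24, averaged 10.49 ± 0.06 over the control arrays and 10.47 ± 0.13 over the RKIP shRNA arrays (SD, n = 3 each), a log2 change of -0.02 (interval -0.22 to 0.19). For SNHG15, SNHG20 and SNHG33 the log2 changes were 0.03 (interval -0.13 to 0.19), 0.01 (-0.19 to 0.21) and 0.09 (-0.09 to 0.26). These last intervals leave room for small changes, and they do not show that the levels are equal.

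**Figure D1:**
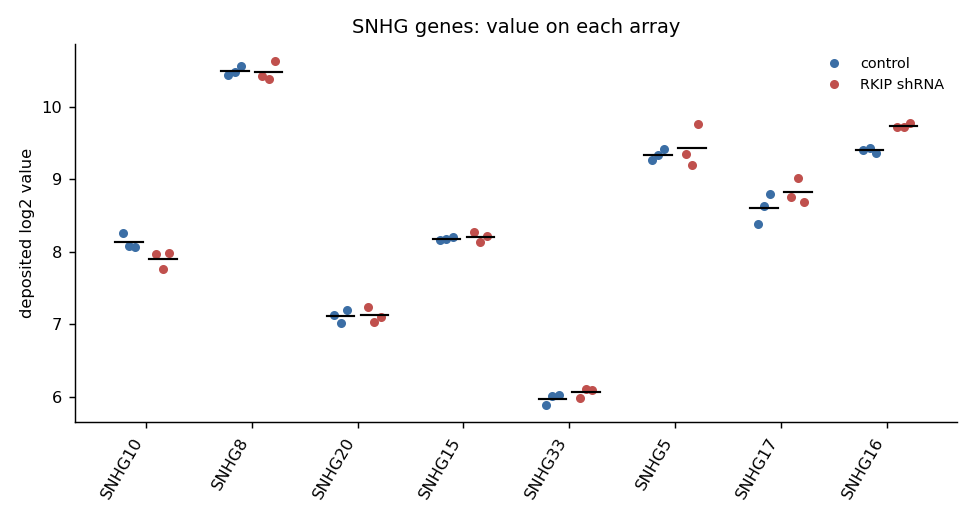
Deposited log2 value (vertical axis) of the 8 SNHG genes on each of the 3 control arrays (blue) and 3 RKIP shRNA arrays (red), ordered by change, with group means as black bars. SNHG16 at the right is higher on all 3 RKIP shRNA arrays, SNHG10 at the left is lower on all 3, and the other genes overlap.

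None of the 55 small nucleolar RNAs listed as hosted by SNHG genes, GAS5 or ZFAS1 had a probe under its own name, so host and guest could not be set side by side for them. SCARNA16, the guest of SNHG20 by one of RefSeq's other names for that gene, which was picked after its values were seen, had a log2 change of 0.23 (SE 0.11, limma adjusted p = 0.21), beside 0.01 for SNHG20.

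Most LINC genes, 59 of 76, did not pass the threshold, 14 were lower (18.4%) and 3 were higher (3.95%; limma, adjusted p under 0.05). The share that passed in either direction, 22.4%, was below the 31.7% of all named genes with a mean of 4.5 or more. The median size of the log2 change was 0.17 against 0.19. These sets were not matched for signal, with a median mean of 5.17 for the LINC genes against 7.07. Of 24 LINC genes with a mean of 6.5 or more, 3 were higher and 6 lower. Of the 52 below that, none was higher and 8 were lower. Shares of all named genes in these ranges of signal are not given here, so LINC genes were not compared at equal signal. Among the 76 LINC genes the share of lower ones stood near the 15.8% of all named genes with a mean of 4.5 or more. The share of higher ones was below the 15.9% of those named genes. Of the 346 other long non-coding RNA genes with a mean of 4.5 or more, 28.6% passed: 23.7% were lower and 4.91% higher. The median log2 change was -0.06 for the LINC genes, -0.09 for the other long non-coding RNA genes and 0.02 for all named genes. Groups did not overlap in 28 LINC genes that were lower and 6 that were higher on every RKIP shRNA array; over all genes of that signal the shares were 26.7% and 28.6% (55.3% together), and over all named genes 18.1% and 19.8% (37.9% together). Among the 346 other long non-coding RNA genes 35.0% were lower and 11.8% higher without overlap (46.8% together). No test set the LINC genes against other genes, because they were chosen with results of these arrays known.

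Fewer genes passed when any single array was left out: 1987 to 2397 of all named genes, against 3010 with all 6 arrays. The count of lower LINC genes also fell. It was 9 without control replicate 2 and between 10 and 12 when any other array was left out. The count of higher ones fell to 1 without RKIP shRNA replicate 1, RKIP shRNA replicate 3 or control replicate 3. A total of 10 LINC genes kept their call in all 6 such fits.

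**Figure D2:**
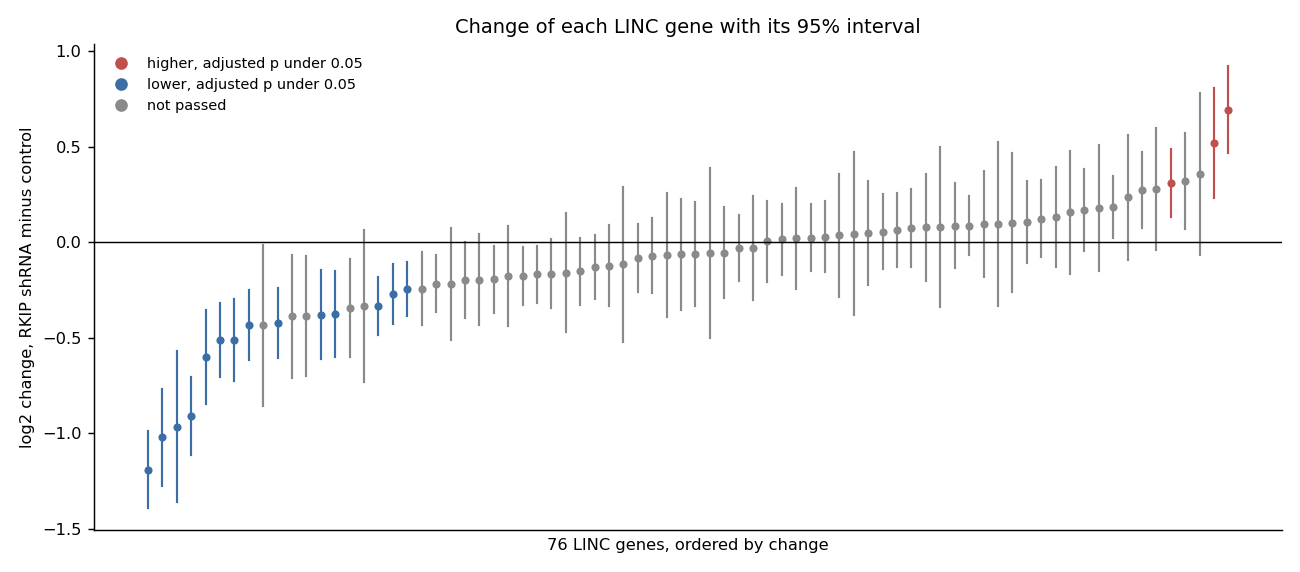
Log2 change of RKIP shRNA minus control (vertical axis) for the 76 LINC genes in order of change, with 95% intervals from limma as vertical lines. The 14 genes that fell (blue) reach from -1.19 to -0.25, the 3 that rose (red) from 0.31 to 0.69, and the 59 grey genes did not pass.

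LINC00649 fell most. Its control arrays read 7.02, 6.97 and 6.89 and its RKIP shRNA arrays 5.65, 5.77 and 5.89. The groups lay far apart, and the fall was 2.29-fold (log2 change -1.19, SE 0.09, limma adjusted p = 0.000399). LINC00977, which lies between MYC and GSDMC in RefSeq order, read 7.58, 7.89 and 7.55 in control and 6.74, 6.59 and 6.64 in RKIP shRNA cells. It fell 2.03-fold (log2 change -1.02, SE 0.11, limma adjusted p = 0.0013). These were the only 2 of the 76 genes past the threshold with a change of at least 2-fold.

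LINC02035 and LINC00938 fell by nearly as much. LINC02035 read 5.32, 5.65 and 5.82 on the control arrays and 4.52, 4.92 and 4.44 on the RKIP shRNA arrays. Its arrays were spread more widely within each group, so its log2 change of -0.97 carried the largest error of the genes past the threshold (SE 0.17, limma adjusted p = 0.0077). LINC00938 read 8.64, 8.45 and 8.42 in control and 7.68, 7.57 and 7.53 in RKIP shRNA cells. With tight groups it fell 1.88-fold (log2 change -0.91, SE 0.09, limma adjusted p = 0.000894). All 4 of these genes kept their call when any single array was left out.

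Of the other 10 genes that fell, 5 also kept their call in every such fit. LINC01341 fell by 0.60 on the log2 scale, from control arrays between 5.23 and 5.44 to RKIP shRNA arrays between 4.58 and 4.90. LINC00667 fell by 0.51, from between 6.61 and 6.81 to between 6.11 and 6.27. LINC00294 fell by 0.44 and LINC00926 by 0.42, with SE 0.08 each. LINC00426 fell by 0.51, from 4.78 ± 0.08 to 4.27 ± 0.14 (SD, n = 3 each), the latter little above the median of all rows.

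The calls of the other 5 were less stable. LINC02210 fell by 0.33 and lost its call only without control replicate 2 (limma adjusted p = 0.051). LINC00891, at -0.38, kept its call only without RKIP shRNA replicate 3, and LINC01000, at -0.27, only without control replicate 1. LINC01191 had a log2 change of -0.38, and LINC00999 one of -0.25; both lost their call in all 6 fits. LINC00999 read 11.18, 11.19 and 11.18 in control and 10.94, 10.94 and 10.92 in RKIP shRNA cells, so its small shift was steady from array to array.

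LINC01963 rose most. It read 6.78, 7.01 and 6.93 on the control arrays and 7.72, 7.47 and 7.60 on the RKIP shRNA arrays, a 1.62-fold rise (log2 change 0.69, SE 0.10, limma adjusted p = 0.0034) that was called in all 6 fits without 1 array. LINC00265 read 8.40, 8.14 and 7.92 in control and 8.64, 8.72 and 8.66 in RKIP shRNA cells. Its control arrays were spread widely while its RKIP shRNA arrays nearly coincided, and its log2 change of 0.52 (limma adjusted p = 0.025) kept the call only without control replicate 1. LINC01128 rose by 0.31 (SE 0.07, limma adjusted p = 0.028), and its call remained only without RKIP shRNA replicate 2 or control replicate 2.

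**Figure D3:**
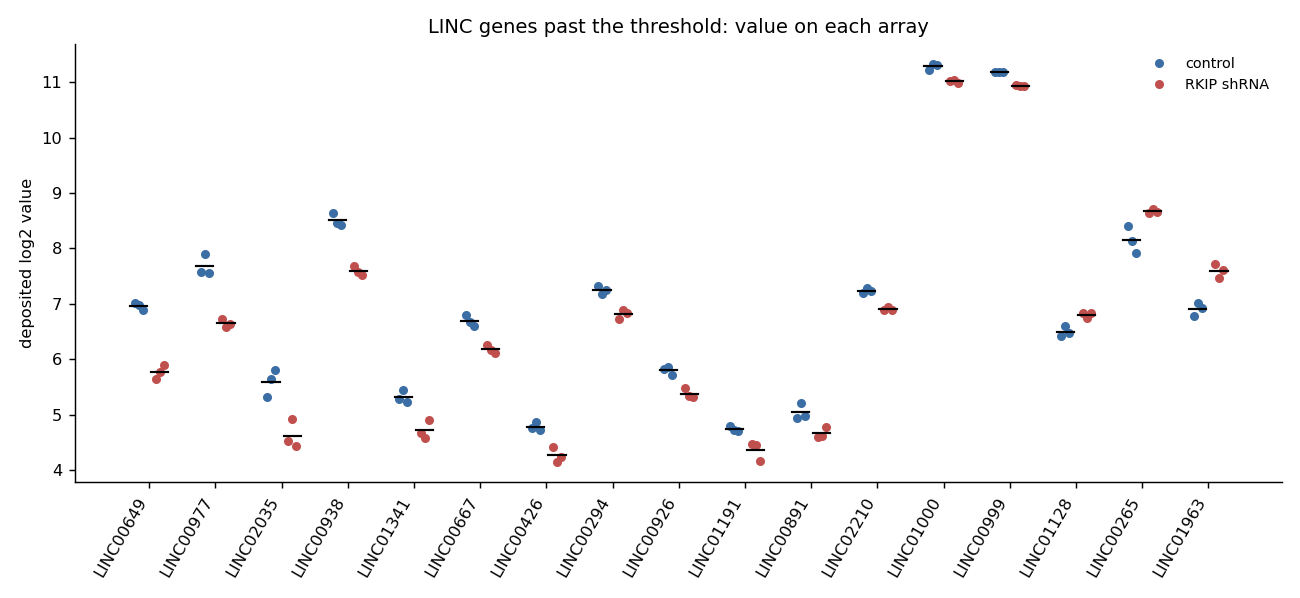
Deposited log2 value (vertical axis) of the 17 LINC genes past the threshold on each control (blue) and RKIP shRNA (red) array, ordered by change from LINC00649 to LINC01963, with group means as black bars. In all 17 genes the groups do not overlap; levels of different genes come from different probes and are not comparable.

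Among the 59 LINC genes that did not pass, changes ran from -0.44 to 0.36, and for 45 of them the 95% interval lay within 0.5 of no change on the log2 scale. The groups did not overlap in 17 of them, and 12 had an unadjusted p under 0.05. Of the 5893 named genes with a mean of 4.5 or more that did not pass, 2034 did not overlap and 1295 had such a p. Both are larger shares than those of the LINC genes. LINC01252 came nearest to the threshold: control arrays at 5.52, 5.48 and 5.50 and RKIP shRNA arrays at 5.27, 5.33 and 5.25, with an adjusted p of 0.051 by limma. LINC00963 at -0.34 (limma adjusted p = 0.068) and LINC01554 at 0.27 (limma adjusted p = 0.064) followed. LINC00173, known from granulocyte development, had a log2 change of -0.06 with an interval from -0.50 to 0.39. The 4 genes of highest mean that did not pass were LINC01347, LINC00987, LINC01061 and LINC03009, with log2 changes of -0.17, 0.09, -0.13 and -0.15.

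Several LINC genes have close copies, which the probes may not separate. The start regions of 63 members were compared for shared stretches of 20 bases, and 2 of 1953 pairs shared any. LINC01106 and LINC01123 shared 270 such stretches; their log2 changes were -0.44 (interval -0.86 to -0.01) and 0.08 (interval -0.34 to 0.50). LINC01002 and LINC01061 shared 192, and their log2 changes were -0.22 and -0.13, neither past the threshold. A window of 60 bases from each is shown, at chr19:202193-202252 and chr4:119410669-119410728 (GRCh38.p14, minus strand for both), with a match to the AP-1 motif TGANTCA in capitals.
LINC01002: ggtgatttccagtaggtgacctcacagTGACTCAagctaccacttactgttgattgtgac
LINC01061: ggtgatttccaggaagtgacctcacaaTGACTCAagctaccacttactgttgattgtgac
The windows were identical at 57 of 60 positions. LINC00999, LINC01000 and LINC01347 had no start region here, so they could not be compared in this way, but each had at least 3 probes. Values of these genes are best read as those of a probe, not of a single locus.

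A total of 20 members had more than 1 probe, with 36 other probes among them. Of 4 LINC genes past the threshold with other probes, 2 had another one called in the same direction and none in the opposite direction. These other probes were tested in a fit over all 16098 named rows. LINC00265 had one at 0.73 (called) and one at -0.01 on the log2 scale, and LINC01000 had one at -0.28 (called) and one at -0.09. The other LINC00891 probe gave -0.30, and the 3 other LINC00999 probes gave -0.27, -0.26 and -0.05, none of them called.

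The counts depended on the signal threshold of 4.5: with none, 8 LINC genes were higher and 25 lower, and the median log2 change of the LINC genes was 0.0143 in place of -0.06. Just inside it lay LINC00426 with a mean of 4.53 and LINC00696 with 4.55, and just outside it LINC01512 with 4.498, which fell by 0.69 (limma adjusted p = 0.0014), and LINC00339 with 4.49. The SNHG gene outside was SNHG18 at 3.73, and the nearest inside were SNHG33 at 6.02 and SNHG20 at 7.12. LINC00426 and LINC01191 reached 4.5 only through the control group and LINC00696 only through the RKIP shRNA group, so their direction was favoured by the choice. Without these 3, 12 of 73 LINC genes were lower and 3 higher.

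The nearest coding genes were looked at next. In RefSeq order, 14 of the 17 LINC genes past the threshold had at least 1 measured coding gene directly next to them on one side, 21 such neighbours in all. Of these 13 did not pass and 8 did, or 38.1%. That stands beside 31.7% of all named genes with a mean of 4.5 or more, and 20.2% of all named genes. Neighbours were not filtered for signal, so neither share is a like set. The 8 neighbours that passed had the direction of the LINC gene. Counting also the nearest measured coding gene where nearer ones had no probe, 13 of 34 passed, 11 in the direction of the LINC gene and 2 against it: HIPK3 rose by 0.22 near LINC00294, and CALU by 0.33 near LINC01000. Next to LINC genes that did not pass, 15 of 63 such neighbours passed (23.8%), 9 with the sign of the LINC gene and 6 against it. Neighbours were picked by position alone, their signal was not matched, and no test compared the shares. Only coding genes were ordered, so non-coding genes in between were skipped. No limit was set on distance, and neighbours can lie far apart.

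Named pairs, which are next to each other only in that order and at any distance, show how far the sizes matched. SLC49A4 fell by 0.66 (SE 0.07, limma adjusted p = 0.0017) beside LINC02035 at -0.97. MYC, the growth-promoting transcription factor gene, fell by 0.42 beside LINC00977 at -1.02, while GSDMC on the other side was dim and at -0.02. ANO6, a membrane scramblase gene, fell by 0.37 beside LINC00938 at -0.91. TCF12, an E-protein transcription factor gene, fell by 0.37 beside LINC00926 at -0.42, and TCP11L1 by 0.37 beside LINC00294 at -0.44. KATNAL1 fell by 0.30 beside LINC00426 at -0.51. ZNF33B fell by 0.43 beside the annotated place of LINC00999 at -0.25, a gene with several probes whose own call was lost in all 6 fits without 1 array. RALA, a RAS-like GTPase gene, rose by 0.43 beside LINC00265 at 0.52. KATNAL1 lost its call in some fits without 1 array (highest limma adjusted p = 0.076); the other 7 kept theirs in all 6. On the other hand, both neighbours of LINC01341 (SCCPDH at -0.01 and AHCTF1 at 0.05) and both of LINC00667 (AKAIN1 at 0.10 and ZBTB14 at 0.03) did not pass.

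Next to SNHG genes, 4 of 9 directly adjacent measured coding genes passed, all beside SNHG genes that did not pass themselves, so their directions are not compared. MYO1G, a myosin gene of blood cells next to SNHG15, fell by 1.02 (SE 0.08, limma adjusted p = 0.000476), and MCF2L2 and KLHL6 on either side of SNHG33 fell by 1.13 and 0.41, while the log2 changes of SNHG15 and SNHG33 were 0.03 and 0.09 and did not pass. GLRX5, a glutaredoxin gene of iron-sulfur cluster assembly, starts within 1000 bases of SNHG10 on the opposite strand. It rose by 0.30 (limma adjusted p = 0.020), against the -0.23 of SNHG10; the difference between these 2 genes was not tested.

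**Figure D4:**
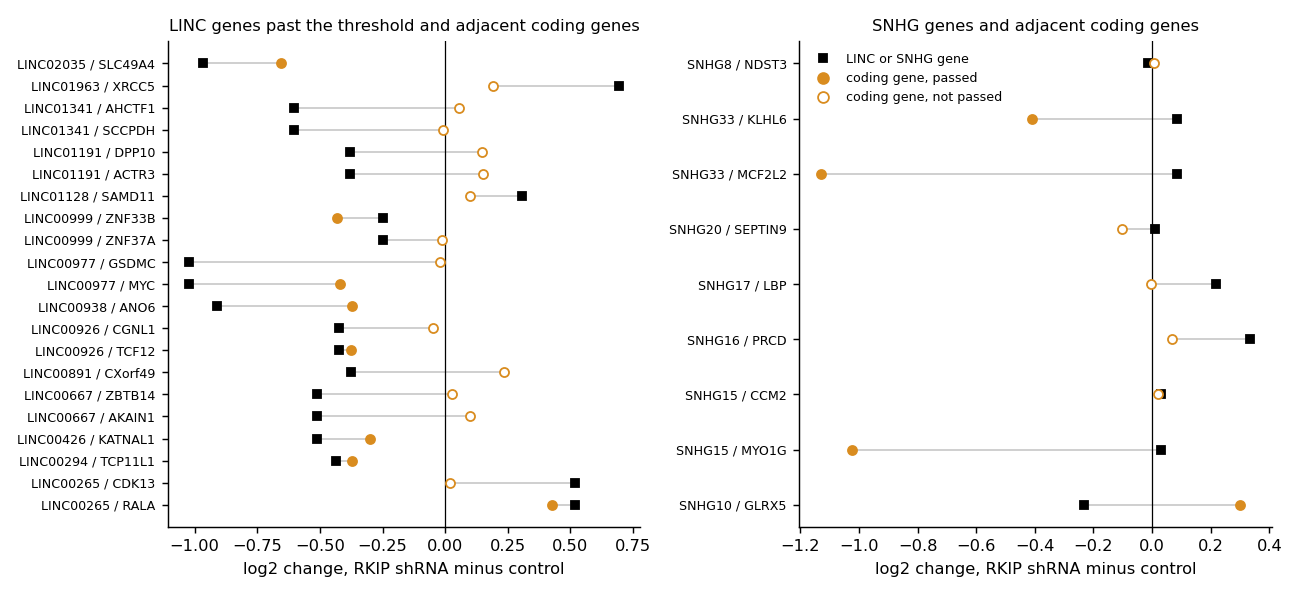
Log2 change of RKIP shRNA minus control (horizontal axis) for LINC genes past the threshold (left) and SNHG genes (right), as black squares. Each is joined to the coding gene directly next to it in RefSeq order, at any distance. That gene is an orange circle, filled where it passed. On the left 8 of 21 circles are filled, from SLC49A4 at -0.66 to RALA at 0.43; on the right 4 of 9 are, all next to SNHG genes that did not pass.

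The start regions of the LINC genes were searched on both strands for motifs of factors that act downstream of growth signalling: the ETS site CCGGAAGT, the AP-1 site TGANTCA, the cyclic AMP response element TGACGTCA and the E-box CACGTG bound by MYC. Of 56 LINC start regions 4, 5, 3 and 5 held them, against 4.44%, 7.76%, 1.98% and 7.43% of the start regions of all genes. LINC genes without a start region here, LINC00649 and LINC00977 among them, could not be searched. Among the LINC genes past the threshold that had a start region, 3 held a motif. They are shown as 60 bases of the gene's strand with the match in capitals, from chr7:39733344-39733403 (plus) for LINC00265, which rose, and from chr13:30373956-30374015 (minus) for LINC00426 and chr18:5238043-5238102 (plus) for LINC00667, which fell.
LINC00265: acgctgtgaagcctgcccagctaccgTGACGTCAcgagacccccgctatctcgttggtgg
LINC00426: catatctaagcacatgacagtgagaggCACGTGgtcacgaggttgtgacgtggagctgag
LINC00667: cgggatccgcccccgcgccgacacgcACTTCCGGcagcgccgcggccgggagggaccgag
Each of the 3 carried a different motif, the ETS site of LINC00667 on the opposite strand, and no match overlapped one of another motif. Such a match is a description of the letters and does not show that a factor binds.

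Genes that handle these RNAs are given from lists set by function; for each count, 15.9% of all named genes with a mean of 4.5 or more were higher and 15.8% lower. A list for box C/D and H/ACA small nucleolar ribonucleoproteins and their assembly had 16 measured genes. Of these 9 rose and none fell, with a median log2 change of 0.34. NHP2 and GAR1, core subunits of H/ACA particles, rose by 0.55 (SE 0.07) and 0.59 (SE 0.17). TGS1, which modifies the cap of small nuclear and nucleolar RNAs, rose by 0.53. PRPF31, a spliceosomal protein gene that the list also held and that is counted in the 9, rose by 0.50. The call of GAR1 was lost in some fits without 1 array (highest limma adjusted p = 0.13). FBL and NOP58, core box C/D proteins, had log2 changes of 0.05 and -0.01 and did not pass.

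Of 9 measured nonsense-mediated decay factors 2 rose and 1 fell, a share near the 31.7% over all named genes of that signal. UPF1, the central helicase of that pathway, rose by 0.65 (SE 0.08, limma adjusted p = 0.0020) and EIF4A3, a helicase of the exon junction complex, by 0.62, while NBAS fell by 0.50. A list of coding genes with transcripts known as targets of this decay had 15 measured members, and their isoforms were not told apart. None rose and 4 fell by limma (6 had an unadjusted p under 0.05). The 4 were CARS1 at -0.66, DDIT3 at -0.61, ASNS at -0.52 and ATF3 at -0.29. These 4 are also known to be induced by amino acid or endoplasmic reticulum stress. The call of ATF3 was lost in some fits without 1 array (highest limma adjusted p = 0.095). The shares of these targets and of the next list were below that 31.7%. Of 17 measured exosome, capping and decay enzymes 2 rose, EXOSC4 at 0.69 and TENT4B at 0.45, and 1 fell, the 5′ exonuclease gene XRN1 at -0.48.

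Other small nucleolar RNA hosts and long non-coding RNAs passed in both directions. Beside them, 31.7% of all named genes with a mean of 4.5 or more passed, and 20.2% of all named genes. The list of long non-coding RNAs also held genes below that mean, such as HCG11. Of 11 measured genes on a list of hosts outside the SNHG name, which may be incomplete, 1 rose and 3 fell. EPB41L4A-AS1, a host with a long non-coding RNA, fell by 0.56 (SE 0.08, limma adjusted p = 0.0040). The elongation factor gene EEF2 fell by 0.32 and RPL12 by 0.30, while TNPO2 rose by 0.32. DANCR, which was counted with the long non-coding RNAs below and not as a host, rose by 0.40 (limma adjusted p = 0.015). The calls of EEF2, RPL12 and TNPO2 were each lost in some fits without 1 array (highest limma adjusted p = 0.065, 0.080 and 0.063). GAS5 and ZFAS1, close relatives of the SNHG genes by structure, had log2 changes of 0.18 and -0.24 and did not pass. Of 23 measured long non-coding RNAs with names of their own 5 rose and 3 fell, with MIAT at -0.81, CRNDE at -0.62, the telomerase RNA gene TERC at 0.55 and HCG11, dim in both groups, at -0.43. The call of HCG11 was also lost in such fits (highest limma adjusted p = 0.13). MALAT1 and NORAD were at 0.09 and 0.01 and did not pass.

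**Figure D5:**
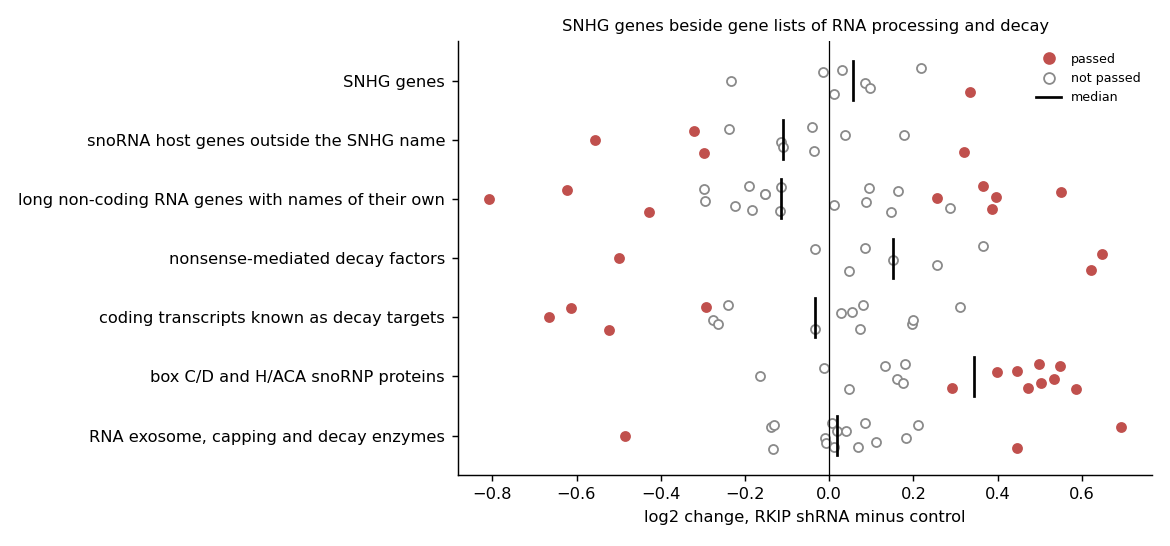
Log2 change of RKIP shRNA minus control (horizontal axis) of the 8 SNHG genes and of the measured members of 6 lists, 1 circle per gene (filled where it passed), with the list median as a black bar; vertical scatter within a row has no meaning. The median is 0.06 for the SNHG genes, 0.34 for the ribonucleoprotein genes and -0.11 for the long non-coding RNAs with names of their own.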

How the data were processed

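RNA of 3 control and 3 RKIP shRNA samples (250 ng each) was hybridised to Affymetrix Human Gene 2.0 ST arrays, per the labels' protocols. The authors deposited 1 log2 value per probe set and array, from 0.72 to 14.0; how these were background-corrected and normalised is not given in the sources used here. The log2 scale was read from the values, and the number of arrays limits the precision. No scanner files were analysed here.

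Probes were named through the platform annotation: 16098 of 53617 rows have 1 symbol, and the probe with the highest mean was kept for each of 14884 genes. RKIP shRNA was compared with control over all these genes with limma 3.58.1 in R 4.3.3 (lmFit and eBayes, 7.01 total degrees of freedom). Benjamini-Hochberg adjustment and a threshold of 0.05 were used. The same fit was also run on simulated data. The recovery required there was set on changes larger than any of a LINC or SNHG gene here. Intervals are 95%. No value of a probe was set against another probe's level. Neighbours, gene types and start regions (250 bases before to 50 after) came from RefSeq tables of GRCh38.p14.

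The members and lists were chosen with earlier results of these data known. Named were PEBP1, every SNHG member, each LINC member past the threshold, the 4 brightest others, the genes nearest the signal threshold, up to 4 genes per list (past the threshold, by size), and the nearest measured coding genes; further genes in the text were picked after their values were seen. Replicate numbers did not pair the arrays. Alternatives covered normalisation, centring, priors, array weights, filters, probe choice, thresholds, the signal minimum, a replicate block and leaving out each array.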

Additional observations from a re-analysis of the deposited data

Results flagged for a closer look

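The other probes of 4 LINC genes passed the threshold in limma although they were not the probe used for the gene. For LINC00173 the probe used had a log2 change of -0.06, whereas probe 17118880 gave -0.63 (limma adjusted p = 0.020) at levels of 3.33 in control and 2.71 in RKIP shRNA cells, below the median of all rows. For LINC01347 the probe used gave -0.17 and did not pass, while probe 16866389 gave -0.44 (limma adjusted p = 0.014) and probe 17124642 gave -0.26 (limma adjusted p = 0.035). LINC00265 probe 17056963 gave 0.73 (limma adjusted p = 0.0027), in the same direction as the probe used. LINC01000 probe 16657450 gave -0.28 (limma adjusted p = 0.034), also in the same direction. Groups of 3 arrays were too small to be searched for single arrays far from the rest.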

How the results depend on the processing

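The call of PEBP1 and the direction of every LINC and SNHG gene past the threshold held under all alternatives in which they were computed. The counts of LINC genes moved more. With all rows tested 1 was higher and 9 were lower, and at an adjusted p under 0.01 the counts were 1 and 9. With a log2 change of at least 0.5 required, 7 were lower. Without genes below the median brightness 6 were higher. That setting kept all 17 calls and added 9 other LINC genes, some higher and some lower, while 3695 named genes passed. With no signal minimum 8 were higher and 25 lower, since more genes were counted. Leaving out 1 array gave 1 to 2 higher and 9 to 12 lower LINC genes and kept 11 to 13 of the 17 calls. SNHG16 was no longer counted at an adjusted p under 0.01 or with a change of at least 0.5 (0 genes higher), and a trended and robust prior called 1 SNHG gene lower, SNHG10. The median log2 change of the LINC genes, -0.06, became -0.0145 after quantile normalization, -0.13 at a mean of 5 or more and 0.0143 with no signal minimum, and ran from -0.0791 to -0.0380 without 1 array. The cause was not tested where none is given.

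Samples with the same replicate number did not deviate together (correlations of 0.019, 0.0034 and -0.016). With the number as a replicate block, 2 LINC genes were higher and 10 lower, and 12 of the 17 calls remained.

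Signs turned only in uncalled genes. LINC00987 gave -0.0485 with the mean of its probes, and SCCPDH 0.00092 with median centring. Without 1 array, the log2 changes ran from -0.0044 to 0.065 for SNHG15, -0.045 to 0.056 for SNHG20, -0.069 to 0.22 for SNHG5, -0.091 to 0.031 for SNHG8, -0.011 to 0.18 for LINC00987, -0.078 to 0.11 for EPOR, -0.018 to 0.057 for CDK13, -0.020 to 0.052 for ZBTB14, -0.17 to 0.077 for CGNL1, -0.077 to 0.061 for GSDMC, -0.050 to 0.044 for ZNF37A, -0.026 to 0.0039 for SCCPDH, -0.21 to 0.13 for ADCY5 and -0.019 to 0.15 for SPPL2C. No detection values were used, so how far dim probes stand above background is unknown.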

Other observations

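Few LINC genes of lower signal passed. Of 382 with a mean below 4.5, 5 were higher and 11 lower by limma at an adjusted p under 0.05 (4.19%), and 42 had an unadjusted p under 0.05 (11.0%). These shares are near those of all 6256 named genes with a mean below 4.5, of which 275 passed and 776 had an unadjusted p under 0.05 (12.4%); 20.2% of all named genes passed. LINC00862 read 4.74, 4.56 and 4.87 on the control arrays and 3.62, 3.42 and 3.43 on the RKIP shRNA arrays, a log2 change of -1.23 (limma adjusted p = 0.00060). LINC00663 changed by -0.95 and LINC00622 by -0.70 on the log2 scale. LINC00665 rose by 0.71, from control arrays of 3.94, 3.94 and 4.19 to RKIP shRNA arrays of 4.78, 4.76 and 4.65 (limma adjusted p = 0.0028). These genes were picked after their values were seen.

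LINC01512, with a mean just under 4.5, fell by 0.69 (limma adjusted p = 0.0014), from 4.84 ± 0.06 in control to 4.15 ± 0.09 in RKIP shRNA cells (SD, n = 3 each).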
